A study of Mus musculus with 12 samples.

Results

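Nucleosome assembly proteins and their relatives from the testis-specific protein Y-encoded family share a fold, the NAP domain, that binds histones. The mouse TSPYL genes (Tspyl1 to Tspyl5) and NAP1L genes (Nap1l1 to Nap1l5) were described here in the meninges of mice with chemically induced colitis. The 10 genes were chosen by family name after Tspyl4 had been selected on its DSS against Control difference in these same libraries, where it stood among the fallen genes with the smallest p. Their values and calls in that contrast, which come from a fit over all genes, are therefore given as a description and support nothing, and no p is printed for a member there. Covariation between mice of a group, which does not use the contrast, was tested, and genes outside the family are given with their adjusted p in the contrast. All 10 symbols were found among the 47747 of the count table, and all 10 passed the filter on low counts with 18593 genes in all.

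Total RNA was sequenced from the meninges of 12 C57BL/6 mice, 6 in the DSS group and 6 in the Control group. DSS is dextran sulfate sodium, a polymer that injures the colon lining when drunk and is used to model colitis. The DSS mice drank a 2% solution for 5 days and then plain water, and the labels give culling after 6 days without saying from which day these are counted. The Control mice are labelled by that word only, and the labels give neither the sex nor the age of any mouse.

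NAP1 proteins carry histone H2A-H2B dimers from the cytoplasm to the nucleus and hand them to DNA as nucleosomes form, and they also take them off again. Nap1l1 and Nap1l4 encode the forms found in most tissues, whereas Nap1l2, Nap1l3 and Nap1l5 are known mainly from brain and other neural tissue, and Nap1l5 is an imprinted gene read from the paternal allele. The TSPYL proteins are less well understood: loss of human TSPYL1 causes a syndrome of sudden infant death with dysgenesis of the testes, TSPYL2 restrains the cell cycle and binds the scaffold protein CASK, and human TSPYL5 binds the deubiquitinase USP7.

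The libraries held 9312788 to 41869997 counts, so that 1 count was worth 0.0216 to 0.0899 CPM, the depth-scaled count in which all levels are given here, adjusted by TMM (a trimmed mean of expression ratios between libraries). The tissue label reads colon while the titles and the extraction protocol name meninges, and markers of both were looked at. The 10 meningeal fibroblast genes summed to 10230 to 19300 CPM in DSS and 11270 to 16920 CPM in Control libraries. The 5 colon epithelium genes summed to 0.798 to 8.29 CPM in DSS and 1.68 to 5.08 CPM in Control libraries, and Cdx2, which defines intestinal epithelium, had 0 counts in all 12. In Control replicate 2 ribosomal RNA took 61.3% of the counts, against 1.27% to 4.66% in DSS libraries and 1.13% to 10.5% in the other Control libraries. The 7 skeletal muscle genes summed to 187.5 CPM in DSS replicate 2, above the 25.5 CPM that no other library exceeded.

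Of the 10 members 3 fell in DSS mice, namely Tspyl1, Tspyl4 and Nap1l5, 0 rose and 7 were not called. A gene was called where the quasi-likelihood test of edgeR over all tested genes gave an adjusted p (Benjamini-Hochberg) under 0.05. Over all 18593 genes tested 4.94% were called, 1.26% as lower and 3.68% as higher in DSS mice. The median log2 fold change was -0.33 over the members and -0.02 over all tested genes, and 10 of 10 members and 54.7% of all tested genes had a value below 0. At or below the value of Tspyl4 lay 5.49% of all tested genes. In 3 members every DSS library was below every Control library, against 0.823% of all tested genes. Since the members were chosen on this contrast, nothing is read from these counts. Neither at an unadjusted p under 0.05 nor by DESeq2 did any member rise (0 each). At that unadjusted p 7 members were lower, and 5 fell by DESeq2. Out of the whole set of 18593 genes, 3525 met the unadjusted cut-off, counting both directions, and 515 fell by DESeq2. With Control replicate 2 and DSS replicate 2 both left out, the 3 called members were again Tspyl1, Tspyl4 and Nap1l5.

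In GENCODE M21 on GRCm38, Tspyl4 lies on chromosome 10 from 34297442 to 34301320 on the plus strand, and Tspyl1 lies 12167 bases before it on the same strand, from 34282190 to 34285275. Nap1l5 lies on chromosome 6 from 58905233 to 58907076 on the minus strand. Each of these genes has its whole coding part in 1 exon. The promoters of these 3 genes are shown because they were the members called as lower in DSS mice, and because the 2 Tspyl genes are neighbours. Each window runs 5′ to 3′ from 250 bases before to 50 bases after the RefSeq transcription start on GRCm38.p6. Capitals mark matches on either strand to TGACGTCA (the cAMP response element), its shorter core CGTCA, the CCAAT box CCAAT, the TCTCGCGA element and the E-box CACGTG.
Tspyl4 (chr10:34297171-34297470, plus strand): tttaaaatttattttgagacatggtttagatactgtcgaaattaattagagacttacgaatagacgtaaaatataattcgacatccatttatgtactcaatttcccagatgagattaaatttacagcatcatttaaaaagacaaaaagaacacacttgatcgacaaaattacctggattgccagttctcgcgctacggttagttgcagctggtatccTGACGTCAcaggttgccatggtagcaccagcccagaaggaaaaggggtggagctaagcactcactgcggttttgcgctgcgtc
Tspyl1 (chr10:34281940-34282239, plus strand): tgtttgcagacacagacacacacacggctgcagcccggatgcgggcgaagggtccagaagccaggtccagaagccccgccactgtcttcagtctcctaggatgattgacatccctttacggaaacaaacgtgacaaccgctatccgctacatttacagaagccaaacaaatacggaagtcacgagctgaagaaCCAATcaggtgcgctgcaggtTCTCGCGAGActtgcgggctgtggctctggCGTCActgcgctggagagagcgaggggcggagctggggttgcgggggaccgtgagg
Nap1l5 (chr6:58907077-58907376, minus strand): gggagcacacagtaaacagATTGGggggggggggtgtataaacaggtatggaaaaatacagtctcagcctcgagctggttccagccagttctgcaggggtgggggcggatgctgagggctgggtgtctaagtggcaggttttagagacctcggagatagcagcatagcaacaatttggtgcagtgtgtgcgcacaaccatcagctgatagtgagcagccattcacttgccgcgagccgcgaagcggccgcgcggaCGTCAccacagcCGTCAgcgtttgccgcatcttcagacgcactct

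The 3 promoters differed in composition and in the matches they held. That of Tspyl4 had 40% G and C with 12 CG dinucleotides, that of Tspyl1 58.7% with 21, and that of Nap1l5 57.7% with 17, while the median promoter in the RefSeq table had 52.7% and 7. The Tspyl4 window held a whole TGACGTCA starting 33 bases before the start site, which was found in 1 of the 7 members with a promoter in the table and in 1.79% of all 32851 promoters. The core CGTCA, which lies within the longer word and so was counted again in Tspyl4, was found in 6 of these 7 promoters and in 20.81% of all promoters; the other 5 with it were Tspyl1, Tspyl2, Nap1l1, Nap1l3 and Nap1l5. TCTCGCGA matched at 36 and 34 bases before the start of Tspyl1, a pair of overlapping matches that form the palindrome shown in capitals, and in 1.0% of all promoters. CCAAT was found in 4 of the 7 and in 37.41% of all promoters, and CACGTG in 0 of the 7 and in 7.15%. The words were chosen with these promoters in view, and a match describes letters only.

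Among the TSPYL genes, Tspyl4 and Tspyl1 fell in DSS mice and the other 3 were not called. Tspyl4 ran from 33.0 to 41.3 CPM with a median of 35.9 in DSS libraries, and from 46.9 to 55.6 CPM with a median of 49.9 in Control libraries. Every DSS library lay below every Control library. The means were 36.5 ± 3.22 CPM in DSS and 50.3 ± 3.31 CPM in Control libraries (SD, n = 6 each), a fold of 0.723 and a log2 fold change of -0.47 ± 0.07 (SE). In these bulk samples fewer cells of a type and less RNA per cell cannot be told apart.

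Tspyl1 is the neighbour of Tspyl4. It ran from 36.1 to 43.9 CPM with a median of 38.9 in DSS libraries, and from 45.7 to 51.8 CPM with a median of 47.7 in Control libraries, again with no overlap. The means were 39.7 ± 2.91 CPM in DSS and 48.2 ± 2.61 CPM in Control libraries (SD, n = 6 each), a fold of 0.823 and a log2 fold change of -0.28 ± 0.06 (SE). The call was lost without Control replicate 6 (log2 fold change -0.25), DSS replicate 4 (-0.25) or DSS replicate 6 (-0.27).

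Tspyl3, a close relative of Tspyl4 by protein sequence, was not called although its libraries did not overlap. It ran from 5.50 to 6.62 CPM with a median of 6.18 in DSS libraries, and from 6.63 to 9.68 CPM with a median of 7.85 in Control libraries, with a log2 fold change of -0.37 ± 0.11 (SE). Tspyl5 averaged 4.56 ± 0.602 CPM in DSS and 5.65 ± 0.442 CPM in Control libraries, with 5 of 6 DSS libraries below the lowest Control library and a log2 fold change of -0.31 ± 0.11 (SE). Without Control replicate 6 Tspyl3 was called, and without DSS replicate 2 Tspyl5 was. Tspyl2, the cell-cycle restraining member, averaged 24.4 ± 2.55 CPM in DSS and 26.3 ± 4.75 CPM in Control libraries, and the groups overlapped widely (log2 fold change -0.11 ± 0.11 SE).

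Among the NAP1L genes only Nap1l5 fell by this call. It ran from 3.51 to 6.72 CPM with a median of 5.04 in DSS libraries, and from 6.38 to 12.6 CPM with a median of 7.87 in Control libraries. DSS replicate 1 alone, at 6.72 CPM, reached into the Control range. The means were 4.94 ± 1.21 CPM in DSS and 8.54 ± 2.15 CPM in Control libraries (SD, n = 6 each), a fold of 0.575 and a log2 fold change of -0.80 ± 0.19 (SE), the lowest estimate of the 10. The call was lost without Control replicate 4 (log2 fold change -0.77), Control replicate 5 (-0.65), DSS replicate 4 (-0.73) or DSS replicate 6 (-0.78).

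Nap1l1 and Nap1l4, the broadly expressed chaperone genes, were both not called. Nap1l1 ran from 46.7 to 64.1 CPM with a median of 53.1 in DSS libraries, and from 59.3 to 89.4 CPM with a median of 64.6 in Control libraries. DSS replicate 1 overlapped the Control range, Control replicate 5 stood at its top, and the log2 fold change of -0.34 ± 0.10 (SE) was not called. Nap1l4 averaged 56.7 ± 6.07 CPM in DSS and 57.5 ± 3.71 CPM in Control libraries (SD, n = 6 each), with a log2 fold change of -0.02 ± 0.08 (SE), whose sign turned without Control replicate 4 (0.0023), Control replicate 5 (0.0024) or DSS replicate 2 (0.05).

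Nap1l2 and Nap1l3, both on the X chromosome, were the members with the lowest levels. Nap1l2 rested on 9 to 30 counts a library and averaged 0.546 ± 0.127 CPM in DSS and 0.930 ± 0.255 CPM in Control libraries, with a log2 fold change of -0.74 ± 0.24 (SE) that was not called. Nap1l3 averaged 2.44 ± 1.01 CPM in DSS and 2.90 ± 0.696 CPM in Control libraries (SD, n = 6 each), with 22 to 138 counts. Its log2 fold change was -0.27 ± 0.27 (SE), and the DSS libraries spread from 1.07 to 3.82 CPM, on both sides of most Control libraries.

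**Figure D1:**
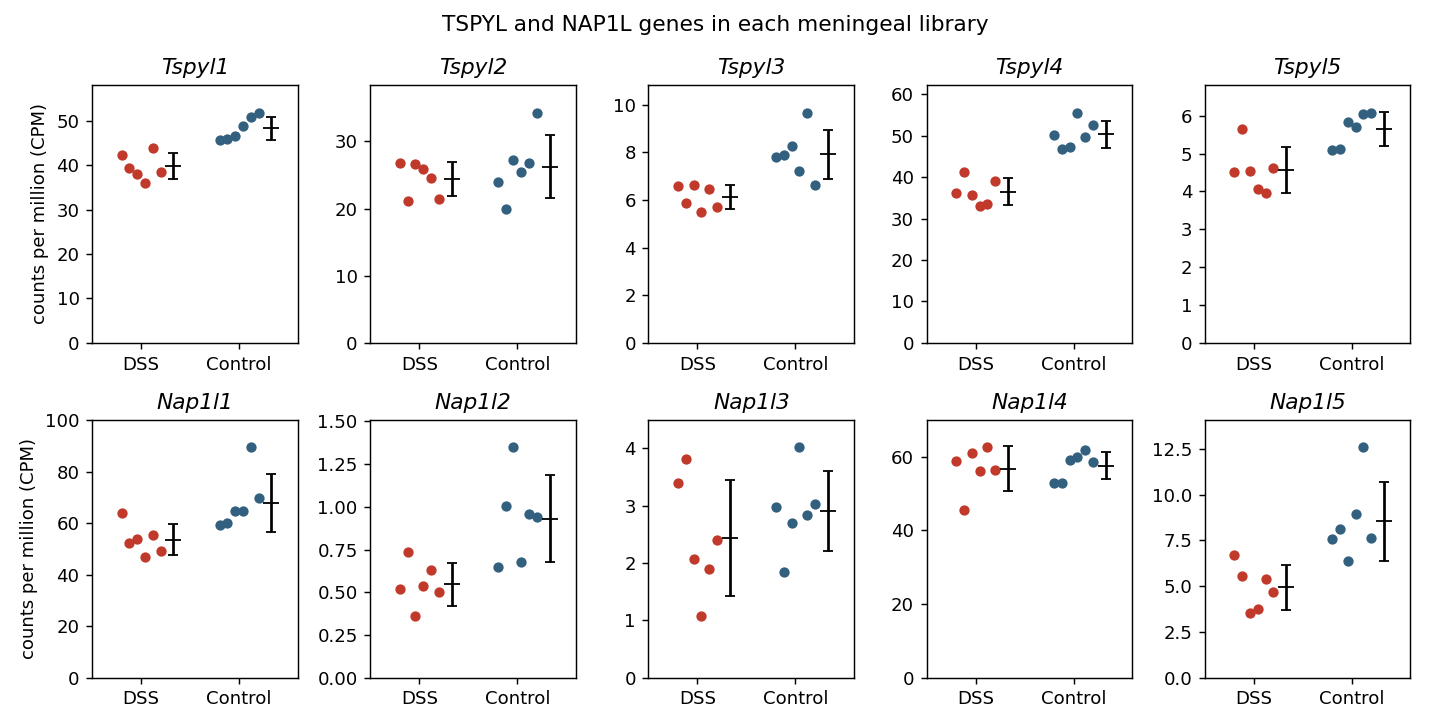
TMM-scaled CPM of each of the 10 genes, 1 point per mouse, DSS left and Control right in each panel, with the mean and SD. Tspyl1, Tspyl3 and Tspyl4 show no overlap, with DSS libraries at 33.0 to 41.3 and Control libraries at 46.9 to 55.6 CPM for Tspyl4.

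**Figure D2:**
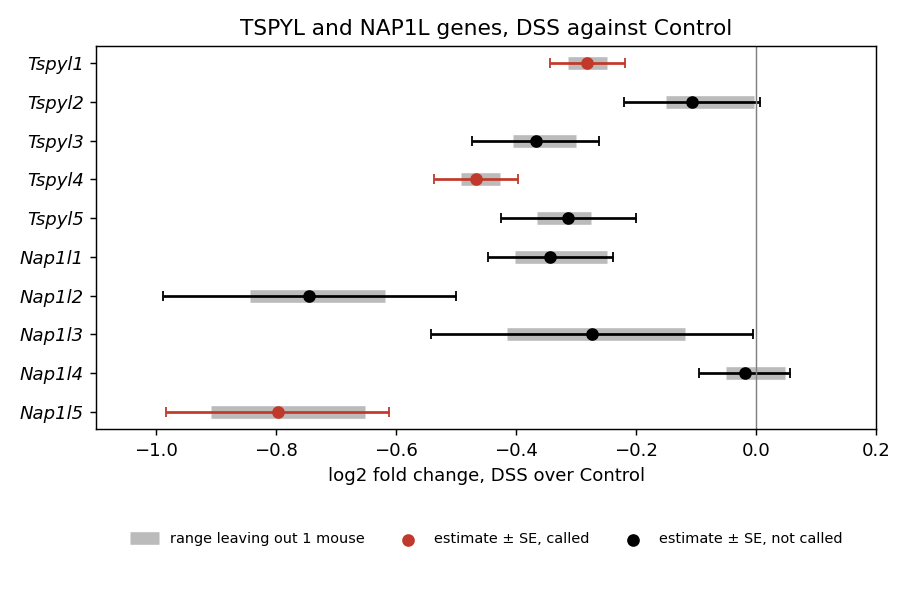
Log2 fold change, DSS over Control, of each gene on the horizontal axis, with its SE as a bar; red marks called genes and black genes not called, and the grey band spans the values with each mouse left out in turn. All 10 estimates lie below 0, from -0.80 for Nap1l5 to -0.02 for Nap1l4, whose band crosses 0.

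Levels of different genes were compared per kilobase of annotated exon, and the order of the means was alike in the DSS and Control groups. Nap1l4 stood first at 18.3 ± 1.96 CPM per kilobase in DSS and 18.6 ± 1.20 in Control libraries (SD, n = 6 each), above Tspyl1 in 12 of 12 libraries. Tspyl1 had 12.9 ± 0.942 CPM per kilobase in DSS and 15.6 ± 0.845 in Control libraries and exceeded Nap1l1 in 11 of 12. Nap1l1 had 10.7 ± 1.22 CPM per kilobase in DSS and 13.6 ± 2.24 in Control libraries. It lay above Tspyl4 in 4 of 6 DSS and 3 of 6 Control libraries. By this length these neighbours in the order did not differ beyond their spread. Tspyl4 had 9.40 ± 0.829 CPM per kilobase in DSS and 12.97 ± 0.853 in Control libraries. It stood above Tspyl2 in 2 of 6 DSS and in 6 of 6 Control libraries.

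Below the first 5 genes the level dropped. Tspyl2, at 8.66 ± 0.906 CPM per kilobase in DSS and 9.31 ± 1.68 in Control libraries, lay above Nap1l5 in 12 of 12 libraries, and Nap1l5 had 2.68 ± 0.657 CPM per kilobase in DSS and 4.63 ± 1.17 in Control libraries. Nap1l5 exceeded Tspyl3 in 11 of 12 libraries, Tspyl3 exceeded Tspyl5 in 12, Tspyl5 exceeded Nap1l3 in 11 and Nap1l3 exceeded Nap1l2 in 12. Among 17895 tested genes with an annotated length, Nap1l4 stood at percentile 90.5, Tspyl4 at 83.9, Nap1l5 at 55 and Nap1l2 at 7.99 of the level per kilobase over all 12 libraries. With the longest transcript as the length, Nap1l1 had 13.6 CPM per kilobase in DSS and 17.3 in Control libraries and passed Tspyl1, and the other 8 ranks did not change. By that length Tspyl4, at 9.40 in DSS and 12.97 in Control libraries, lay further below Nap1l1.

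**Figure D3:**
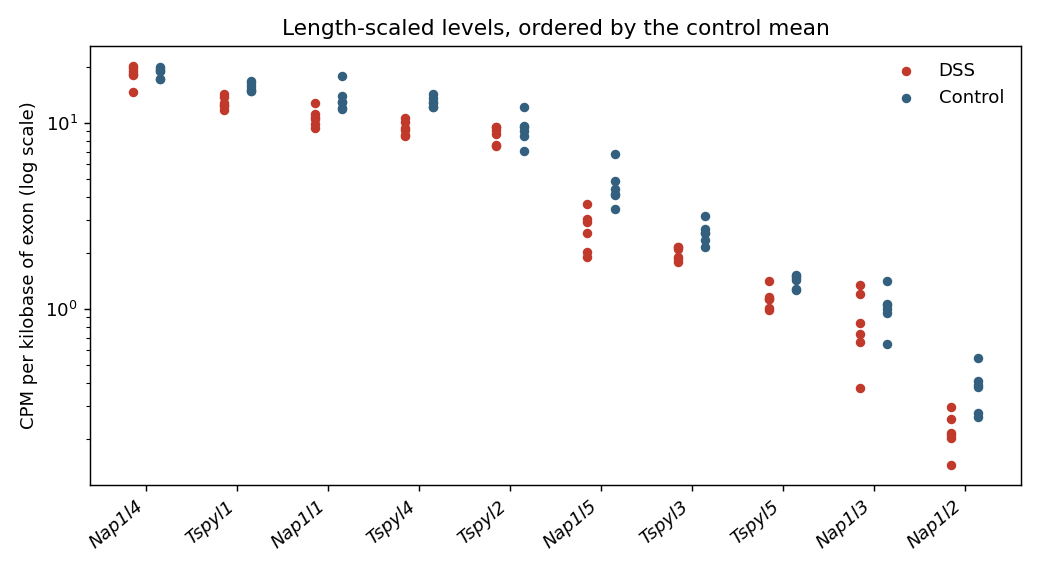
Level per kilobase of annotated exon (TMM-scaled CPM per kilobase, log scale) of the 10 genes in order of the Control mean, 1 point per mouse, DSS left and Control right. The first 5 genes lie near each other, from a Control mean of 18.6 for Nap1l4 to 9.31 for Tspyl2, and Nap1l2 is last at 0.377.

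The members also differ in how their genes are built. In GENCODE M21, Tspyl1, Tspyl3, Tspyl4, Tspyl5, Nap1l2, Nap1l3 and Nap1l5 have their coding part in 1 exon, and Tspyl2, Nap1l1 and Nap1l4 have it in several. Tspyl2, Nap1l2 and Nap1l3 are on the X chromosome, and Tspyl1, Tspyl4 and Nap1l1 on chromosome 10.

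By local alignment of the translated annotated coding sequences, Nap1l1 and Nap1l4 had 69.0% identity over 368 residues. Nap1l1 and Nap1l2 had 57.5% over 292 residues. Tspyl4 had 54.4% identity with Tspyl3 over 320 residues and 54.2% with Tspyl1 over 323. The proteins run from 156 residues in Nap1l5 to 677 in Tspyl2. The acidic residues aspartate and glutamate made up 20.6% to 28.2% of the NAP1L proteins and 11.3% to 21.4% of the TSPYL proteins.

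Reads of some members can be shared with other loci. No 50-base stretch of an annotated transcript was shared between members. Of the distinct 50-base stretches of Tspyl4, 36.54% lie on the opposite strand in the antisense transcript Gm47512, which overlaps it by 1466 exon bases and was not analysed here. The strand setting of the counting is not given, so reads of Tspyl4 and of Gm47512 cannot be told apart. Of Nap1l1, 20.64% of the stretches are shared with the predicted gene Gm4204, which averaged 13.3 ± 2.22 CPM in DSS and 18.2 ± 5.05 CPM in Control libraries and was not called. Tspyl3 shares 11.78% with Gm17868, which had 0 to 7 counts. For Tspyl1, Tspyl5, Nap1l2, Nap1l4 and Nap1l5 the share was 0%.

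Both Tspyl4 and Nap1l5 lie within the span of a longer gene on the opposite strand, with 0 shared exon bases. Nt5dc1, the host of Tspyl4, averaged 8.35 CPM in DSS and 8.13 CPM in Control libraries, with a log2 fold change of 0.03 ± 0.14 (SE), and was not called. Herc3, the host of Nap1l5 and a ubiquitin ligase gene, fell, with 13.5 CPM in DSS and 18.03 CPM in Control libraries and -0.42 ± 0.10 (SE) as its log2 fold change (adjusted p = 0.0324, the quasi-likelihood test of edgeR, Benjamini-Hochberg). That call was lost when any 1 of Control replicates 2, 3, 5 and 6 and DSS replicates 1, 3, 4, 5 and 6 was left out, with log2 fold changes of -0.44 to -0.37. Because the counting strand is not given, reads of the host introns over Nap1l5 cannot be told apart from its own. Of the nearest tested genes to the members, Tspyl1 beside Tspyl4 and Herc3 over Nap1l5 were called and the other 20 were not.

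Differences between mice of the same group were compared after each group's mean log2 CPM was removed, which does not use the DSS against Control contrast. Over 12 libraries and 45 pairs of members, Tspyl4 and Nap1l3 moved together with Pearson r = 0.81 (permutation p = 0.00389, adjusted p = 0.119) and Spearman rho = 0.91 (permutation p = 0.00043, adjusted p = 0.0193). The r was 0.79 within DSS and 0.87 within Control libraries, and 0.68 without the 2 libraries farthest from the median of Tspyl4. Tspyl1 and Nap1l1 had r = 0.73 (permutation p = 0.00531, adjusted p = 0.119) and rho = 0.83 (permutation p = 0.00235, adjusted p = 0.0529), and r = 0.87 without the 2 farthest libraries.

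The neighbours Tspyl1 and Tspyl4 had r = 0.16 and rho = 0.27 between mice (permutation p = 0.655 and 0.442; adjusted p = 0.921 and 0.754). Of the 45 pairs 33 had a positive r, and 8 had an unadjusted permutation p under 0.05 by Pearson's r. After Benjamini-Hochberg adjustment 0 pairs passed 0.05 by Pearson's r and 1, Tspyl4 with Nap1l3, by Spearman's rho. Pairs of other genes were not counted, so these counts of pairs are not read as a trait of the family. Tests were two-sided with the libraries permuted within groups. All genes of a library share its depth and its mix of cells. Choroid plexus marker sums (6 genes) ran from 33.3 to 6876 CPM in DSS and 50.1 to 6784 CPM in Control libraries. In each group Tspyl4 and Nap1l3 were both highest in the library with the highest sum, DSS replicate 2 and Control replicate 4. Both were lowest in the library with the lowest sum, DSS replicate 4 and Control replicate 2. Control replicate 5, at 53.1 CPM, lay near its group mean in both genes. The part of choroid plexus tissue in the covariation was not tested.

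**Figure D4:**
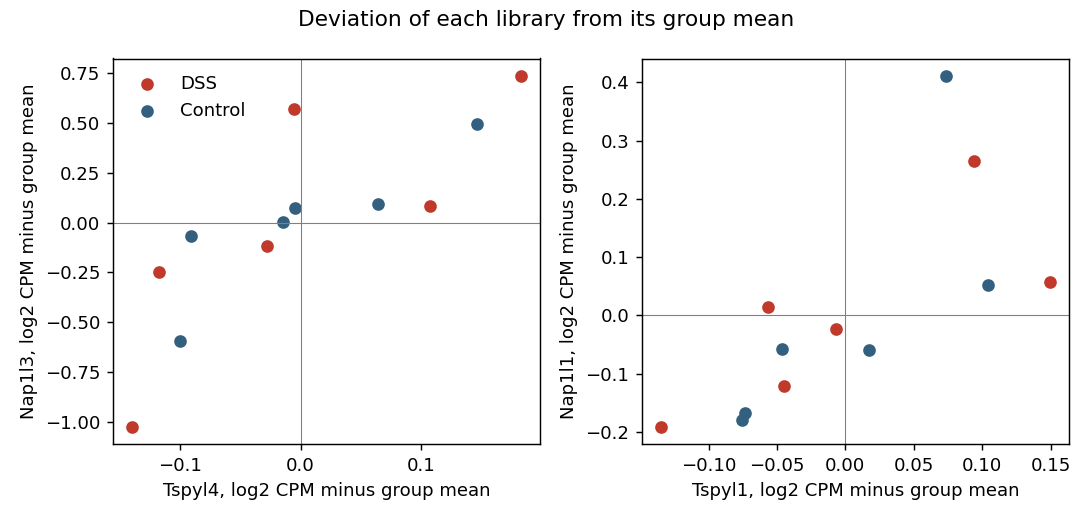
Deviation of each library from its group mean, in log2 CPM, for Tspyl4 against Nap1l3 (left) and Tspyl1 against Nap1l1 (right), DSS in red and Control in blue. The points rise together in both panels, with Pearson r = 0.81 and r = 0.73 over 12 libraries.

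Of 12947 candidate genes, those whose deviations were most like the deviations of Tspyl4 over the 12 libraries were Lef1 (r = 0.86), Wasf3 (r = 0.86), Irs2 (r = 0.85), Txndc16 (r = 0.85) and Rassf9 (r = 0.85). These are the highest of many and carry no test. None of these 5 was called between DSS and Control mice by edgeR's quasi-likelihood test, and their log2 fold changes ran from -0.11 to 0.21.

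The histone chaperones outside the family were set beside it from a list of 30 genes, all tested. Of these 1 rose, 0 fell and 29 were not called, with a median log2 fold change of 0.01. Asf1b, a chaperone of histones H3 and H4 that is used by dividing cells, rose to 2.71 CPM in DSS mice, against 1.34 CPM in Control mice (log2 fold change 1.02 ± 0.23 SE, adjusted p = 0.0193, the quasi-likelihood test of edgeR, Benjamini-Hochberg). The call was lost without DSS replicate 4 (adjusted p = 0.0531 by edgeR). Rbbp7, a histone-binding subunit of chromatin complexes, had the highest level per kilobase in the list, with 24.9 ± 2.50 CPM per kilobase in DSS and 29.4 ± 1.15 in Control libraries (SD, n = 6 each). Its log2 fold change was -0.24 ± 0.07 (SE) and was not called (adjusted p = 0.0586 by edgeR). At an unadjusted p under 0.05, 5 of the 30 were higher and 3 lower, and DESeq2 called 1 as higher and 2 as lower. Among all 18593 tested genes 3525 passed that unadjusted p in either direction, and DESeq2 called 1036 as higher and 515 as lower.

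Of 8 partners of the family, such as importins, casein kinase subunits and the modifying enzyme Ttll4, 1 rose, 0 fell and 7 were not called, with a median log2 fold change of 0.06. Ttll4, which adds glutamate chains to NAP1 proteins, rose to 31.2 CPM in DSS mice, against 26.0 CPM in Control mice (log2 fold change 0.26 ± 0.07 SE, adjusted p = 0.0380, edgeR's quasi-likelihood test). That call was lost when any 1 of Control replicates 3, 4 and 5 and DSS replicates 1, 3, 4 and 6 was left out, where edgeR's adjusted p was 0.0511 to 0.0945. None of the 8 was lower at an unadjusted p under 0.05 (0) or called as lower by DESeq2 (0), which called 515 of all 18593 tested genes so.

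**Figure D5:**
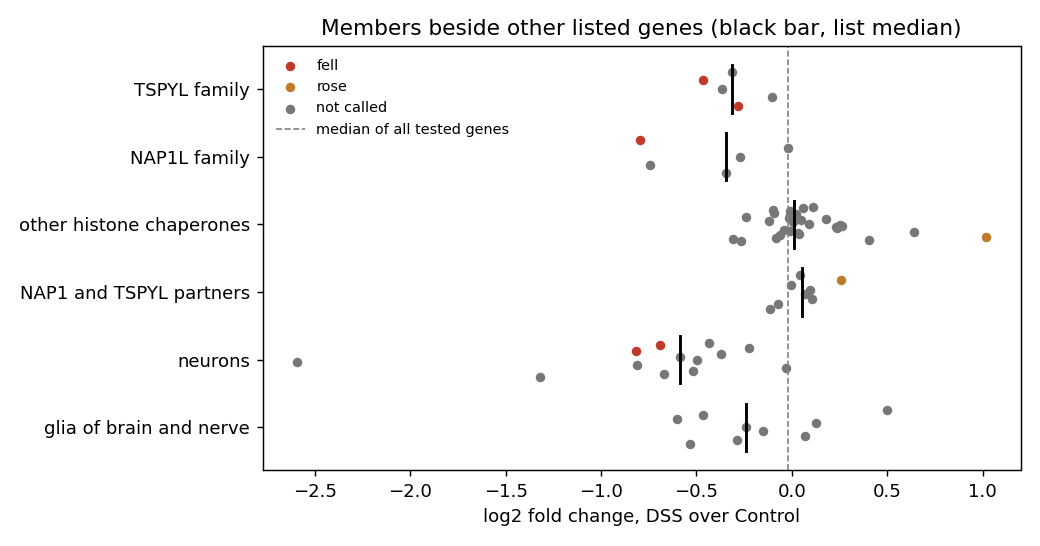
Log2 fold changes, DSS over Control, of the tested genes of 6 lists, 1 point per gene, red where the gene fell, orange where it rose and grey where it was not called. Black bars mark list medians, which are -0.31 for the TSPYL genes, -0.34 for the NAP1L genes, 0.01 for the other histone chaperones and -0.59 for the neuron genes, and the dashed line marks the median of all tested genes, -0.02.

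Markers of some cell types were called between the groups and those of others were not. Of 13 tested neuron genes 2 fell and 0 rose, their median log2 fold change was -0.59, and the list of 15 summed to 148 to 210 CPM in DSS and 189 to 274 CPM in Control libraries. Tubb3, a neuronal tubulin gene, averaged 22.03 CPM in DSS and 35.7 CPM in Control libraries (adjusted p = 0.0217 by edgeR), and Syn1, a synaptic vesicle gene, 3.93 CPM in DSS and 6.90 CPM in Control libraries (adjusted p = 0.0239 by edgeR). The Tubb3 call was lost without Control replicate 5 or 6 or DSS replicate 1 or 6, and the Syn1 call without Control replicate 3, 4, 5 or 6. With each mouse left out in turn 0 to 5 neuron genes fell, 0 without Control replicate 5 or 6 and 5 without DSS replicate 2. Over all tested genes 115 of 18744 fell without Control replicate 5, 150 of 18784 without Control replicate 6 and 390 of 18815 without DSS replicate 2. No neuron gene was higher at an unadjusted p under 0.05 (0) or by DESeq2 (0). DESeq2 called 5 neuron genes as lower, and 515 of all 18593 tested genes. Nefm, a neurofilament gene, had 0 counts in 1 DSS library. The part of this shift in the values of Nap1l5, Nap1l2 and the other members was not tested.

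All 10 neutrophil genes rose, their median log2 fold change was 3.31, and they had sums of 260 to 1395 CPM in DSS and 68.5 to 200.3 CPM in Control libraries. Of 10 cell-cycle genes 7 rose. Of the tested genes of other lists, 1 of 10 fibroblast genes fell (Aldh1a2, a retinoic acid synthesis gene), as did 3 of 6 bone genes (Acp5, Ctsk and Ibsp) and 1 of 2 melanocyte genes (Dct). Of the 9 glia, 5 endothelium, 5 macrophage, 7 skeletal muscle, 6 choroid plexus, 6 pituitary and pineal and 3 colon epithelium genes, 0 were called by edgeR. At an unadjusted p under 0.05, glia had 1 gene higher and 2 lower, endothelium, macrophages and skeletal muscle 1 higher each, and pituitary and pineal 2 lower. That threshold was passed by 3525 of all 18593 tested genes in either direction. DESeq2 called 1 glia gene and 1 pituitary or pineal gene as lower, against 515 of all 18593 tested genes. With 1 mouse left out, 4 to 8 cell-cycle genes rose, with 4 when the mouse was Control replicate 5 or DSS replicate 6. Bone genes that fell then numbered 1 to 4, with 1 when it was Control replicate 2, 3 or 5 or DSS replicate 1 or 6. The Dct call was kept only when it was Control replicate 1 or DSS replicate 5. Once DSS replicate 2, the library high in muscle genes, was dropped, 2 macrophage genes rose and 2 glia and 3 muscle genes fell. Over all genes 989 then rose and 390 fell of 18815 tested, against 684 and 235 of 18593 with all mice. Without Control replicate 6, 1 glia gene fell, as did 150 of all 18784 tested genes. Without Control replicate 1, 1 pituitary or pineal gene fell, as did 334 of all 18693. Over the 12 runs with 1 mouse left out, 443 to 989 of all tested genes rose and 95 to 390 fell. The 10 glia genes summed to 144 to 314 CPM in DSS and 176 to 296 CPM in Control libraries, and Mog had 0 counts in 2 DSS libraries. The part of these cell types in the values of the TSPYL and NAP1L genes was not tested.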

How the data were processed

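RNA from the meninges of 12 mice was made into strand-marking total RNA libraries (TruSeq), per the labels' protocols. The submitters' processing notes name HISAT2, featureCounts, Trim Galore, FastQC and CASAVA, and mm10 as the build; the sources used here give neither versions nor annotation, strand setting or treatment of multiply mapped reads. The authors deposited whole-number counts per gene symbol, not normalized, which all main results use. They also deposited a normalized signal, in which the counts of a library are divided throughout by 1 number, the median-of-ratios size factor (largest relative difference 4.44e-16). Columns were assigned by heading to the sample description labels, and 0 columns belonged to no sample.

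Genes were tested with edgeR 4.0.16 in R 4.3.3: filterByExpr (minimum count 10, minimum total 15), TMM scaling, then the two-sided quasi-likelihood F-test on treatment alone, Benjamini-Hochberg adjusted p under 0.05 over all tested genes. The SE was taken as the size of the log2 fold change divided by the square root of F. The series design counts 12 separate mice, so p-values measure the spread between animals; every within-group pair of libraries differed by more than sampling noise. CPM were scaled with TMM, and their log2 values had a prior count of 2. Correlations used 100000 permutations within groups, adjusted over 45 pairs. The test steps were tested on simulated data.

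The members and the 15 gene lists were chosen with earlier results of these data known. Genes named are all members, up to 4 called members of each list with the smallest p, the other histone chaperone with the highest level, the 5 genes most like Tspyl4 (mean log2 CPM of at least 1, no predicted, Rik or accession-style name), and genes overlapping or next to a member. Lengths and structures are from GENCODE M21 on GRCm38, in which 45251 of 47747 symbols (94.8%) were found, and promoters from RefSeq on GRCm38.p6, which hold 7 of the 10 members; those of Tspyl5, Nap1l2 and Nap1l4 are not shown. Alternatives were DESeq2 1.42.0, limma 3.58.1 (voom with quality weights, and trend on the deposited normalized values after log2 with pseudocount 1), other size factors, no filter, a filter of CPM of at least 1 in 6 libraries, an adjusted p under 0.1, a replicate block, the longest transcript as length, and leaving out libraries.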

Additional observations from a re-analysis of the deposited data

Results flagged for a closer look

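Nap1l1 in Control replicate 5 stood apart from the other Control libraries, at 89.4 CPM against 69.7 CPM in the next one. The gap was 0.654 of the range of the 6 Control libraries, above the 95% critical value of Dixon's test for 6 samples. This was 1 of 20 groups looked at (10 genes in 2 groups), and chance flags about 1 in 20. Without that library the log2 fold change of Nap1l1 was -0.25 and not called.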

How the results depend on the processing

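Tspyl4 was called under all 21 alternatives run, with log2 fold changes of -0.51 to -0.43. As Tspyl4 was selected on this contrast in these libraries, the kept call supports nothing. An adjusted p under 0.1 uses the main fit and could not lose it. The members that fell numbered 3 with DESeq2 size factors, with limma-trend on the deposited normalized values, with a filter of CPM of at least 1, and with Control and DSS replicates 2 left out together. They numbered 5 with DESeq2's Wald test, 5 with limma-voom, 2 with no filter, where Tspyl1 was lost, 6 at an adjusted p under 0.1, and 1 to 4 with 1 mouse left out. Only Tspyl4 was left without DSS replicate 4 or 6. Over all genes DESeq2's Wald test called 1551 of 18593 (1036 rose, 515 fell), and limma-voom called 479 of 18593 as fallen. Without a filter 156 of 33641 genes fell, and an adjusted p under 0.1 gave 1641 of 18593, of which 634 fell. With DESeq2 size factors 213 of 18593 genes fell, and with limma-trend 196 of 18593. The filter of CPM of at least 1 tested 9 members, and 258 of its 16199 genes fell. Leaving out both replicates 2 gave 300 of 18727 as fallen. With 1 mouse left out 538 to 1379 of 18682 to 18871 tested genes were called, 443 to 989 as risen and 95 to 390 as fallen. Nap1l4 had a log2 fold change of -0.049 to 0.048 with 1 mouse left out, above 0 without Control replicate 4 (0.0023), Control replicate 5 (0.0024) or DSS replicate 2, and 0.025 with both replicates 2 left out. The cause was not tested, except that an adjusted p under 0.1 calls more by construction. Replicate numbers gave no sign of pairing the mice, a check that cannot exclude a shared batch. Same-numbered libraries correlated at -0.19 to 0.15 in their deviations, and 1 of 6 correlated best with its own number. With the number as a block 708 genes were called (547 rose, 161 fell) and 2 members, Tspyl4 and Nap1l5. The r of Tspyl4 and Nap1l3 was 0.69 to 0.88 over settings added after the data were seen. It was lowest with Control and DSS replicates 2 left out together, and the Spearman test was not repeated without them. Depth limits Nap1l2, with 9 to 30 counts, which did not pass the filter of CPM of at least 1.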
